A study of Mus musculus with 6 samples.

Results

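The cluster of miR-183, miR-96 and miR-182 is a group of 3 miRNA hairpins that lie next to each other and are transcribed as a single precursor. Its members were all entries for an arm of miR-183, miR-96 or miR-182 in the deposited table, which gave 6 of 1081 entries: mmu-miR-183-5p, mmu-miR-183-3p, mmu-miR-96-5p, mmu-miR-96-3p, mmu-miR-182-5p and mmu-miR-182-3p, written below without the species prefix. Of these, 4 passed the filter of a mean of at least 5 normalized reads over all libraries, and miR-96-3p and miR-182-3p did not. Small RNA was sequenced from the kidney inner medulla of 1-month-old mice, 3 controls and 3 mice labelled DicerAQP2Cre+, in which Dicer1 is deleted in cells that express aquaporin-2, the water channel that marks principal cells of the collecting duct. The labels give the controls no further genotype. Cells of the inner medulla that do not express aquaporin-2 also contributed RNA to each library. Which cells carried the deletion was not measured. The Dicer1 transcript is not measured in small RNA, so the deletion could not be checked library by library. The DicerAQP2Cre+ columns are named CK01 to CK03 in the table. They were read as conditional knockout replicates 1 to 3, an inference from the names on which every direction given here rests.

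As background, Dicer cuts the hairpin precursors of most miRNAs into a short duplex. A strand of it, usually the same one for a given hairpin, is loaded into an Argonaute protein as the guide, and the other, the passenger strand, is mostly degraded. The guide finds messenger RNAs mainly through its seed, bases 2 to 8 from the 5′ end. The cluster is best known from sensory organs: its members are abundant in photoreceptors, hair cells of the inner ear and sensory neurons, and mutations in the seed of miR-96 cause progressive hearing loss in mice and humans. Members are also found in epithelia and lymphocytes, and miR-182 and miR-96 are known to repress Foxo transcription factors.

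The mature sequences of all 6 members were found in the RefSeq miRNA table for GRCm38.p6, and are shown because seed and strand decide how the members are grouped below. They are written 5′ to 3′, with the seed in capitals.
miR-183-5p: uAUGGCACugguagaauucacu
miR-96-5p: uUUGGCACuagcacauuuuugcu
miR-182-5p: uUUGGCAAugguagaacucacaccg
miR-183-3p: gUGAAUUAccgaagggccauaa
miR-96-3p: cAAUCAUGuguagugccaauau
miR-182-3p: gUGGUUCUagacuugccaacu

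The 5p arms, which are the usual guides, have related but different seeds. With positions counted from the 5′ end and the first-named miRNA's base first, the seeds of miR-96-5p and miR-182-5p differ by C8A, and those of miR-96-5p and miR-183-5p by U2A, so 6 of 7 seed bases are the same in each pair. miR-183-5p and miR-182-5p differ at both positions, A2U and C8A. Over the whole length compared, seed included, this last pair is the most alike: 18 of 22 positions are identical, against 13 of 22 for miR-96-5p and miR-183-5p and 12 of 23 for miR-96-5p and miR-182-5p. No other mature miRNA of the RefSeq table has the seed of miR-183-5p or of miR-182-5p. The seed of miR-96-5p is shared with miR-1271-5p, for which 0 entries were in the deposited table.

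The hairpins show where the arms lie. They are written 5′ to 3′, with both mature arms in capitals and the 5p arm first.
Mir183 hairpin: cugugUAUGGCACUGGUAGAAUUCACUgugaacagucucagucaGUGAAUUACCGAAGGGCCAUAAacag
Mir96 hairpin: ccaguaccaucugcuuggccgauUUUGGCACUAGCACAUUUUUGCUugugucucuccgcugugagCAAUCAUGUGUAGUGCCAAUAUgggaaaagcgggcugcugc
Mir182 hairpin: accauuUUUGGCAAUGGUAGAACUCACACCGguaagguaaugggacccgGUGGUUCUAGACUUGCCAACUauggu

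In GRCm38 the 3 hairpins lie on the minus strand of chromosome 6 within 3820 bases, in the order Mir183, Mir96, Mir182. Mir183 and Mir96 are 116 bases apart, and 3453 bases separate Mir96 from Mir182. RefSeq places all 3 within Mirc35hg, a long non-coding RNA gene. The nearest protein-coding genes are Nrf1, at 12459 bases, and Ube2h, at 41551 bases. The submitters' processing notes name mm9 as the build of the deposited data, so coordinates are not given.

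Each library held between 2934851 and 7614853 miRNA reads, with the fewest in DicerAQP2Cre+ replicate 2. Values are normalized reads, that is, reads divided by the library's size factor. A library with 0 reads for an entry allows up to 3 reads, or 2.22 to 5.88 normalized reads. These limits, and the exact Poisson and binomial intervals below, cover counting error only. Intervals of fold changes rest instead on the variation between libraries. A read of a mature miRNA spans the whole molecule, so levels of different members were compared without scaling for length. How evenly different sequences were turned into reads was not tested, so comparisons between members are of reads. Levels were compared between genotypes by limma on log2(value + 1), with p-values adjusted by the Benjamini-Hochberg method over all 461 entries that passed the filter. In bulk tissue, fewer cells of a type and less RNA per cell cannot be told apart. Of the marker lists of other cell types, the summed level in the libraries was 12703 to 35681 in controls and 16034 to 38510 in DicerAQP2Cre+ samples for leukocytes (0 of 4 tested called), and 961 to 1229 against 830 to 1245 for endothelium (0 of 2). It was 18.1 to 33.9 against 13.7 to 26.6 for erythroid cells (0 of 1), 23291 to 24538 against 27621 to 39941 for stroma (2 of 5 higher, miR-145a-5p and miR-214-3p), 1277 to 1340 against 627 to 1131 for cortical tubule (1 of 2 lower, miR-194-5p) and 861 to 1049 against 392 to 479 for the neural and sensory list (1 of 3 lower, miR-9-5p). In the neural and sensory list control means were 902 ± 112 normalized reads for miR-9-5p, 51.9 ± 7.44 for miR-128-3p, 25.4 ± 3.66 for miR-138-5p, 0.26 for miR-124-3p and 0.32 for miR-219a-5p. The leukocyte sum was mostly miR-150-5p, with means of 20280.9 in controls and 24468.5 in DicerAQP2Cre+ samples. The other leukocyte entries differed in direction. In DicerAQP2Cre+ samples miR-155-5p was lower without overlap (means 518 and 220, limma adjusted p = 0.0512). For miR-223-3p the means were 4.33 and 12.2, and miR-142a-3p was nearly absent. Over all entries tested, 4.99% were called lower and 3.47% higher. The parts of these cell types in the values below were not tested.

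No member of the cluster passed the test between genotypes. By limma 0 of its 4 tested members passed an adjusted p of 0.05, and 0 had an unadjusted p under 0.05. edgeR and DESeq2 on the recovered reads also called 0 of 4. Over all entries tested, 8.46% were called, 4.99% lower and 3.47% higher in DicerAQP2Cre+ samples. Control and DicerAQP2Cre+ values overlapped for each of the 4 members. They did not overlap for 33.6% of all entries tested. With only 4 members, neither count sets the cluster apart from these shares. The members' median log2 fold change was 0.18, with 1 below 0 and 3 above, against a median of -0.01 over all entries.

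miR-182-5p made up most of the cluster's reads. Control replicates 1 to 3 had 15794, 12196 and 13698 normalized reads of it, and the DicerAQP2Cre+ replicates had 14057, 15918 and 17290, in the same order. The groups overlapped, with the lowest value in control replicate 2 and the highest in DicerAQP2Cre+ replicate 3. Means were 13896 ± 1807 and 15755 ± 1623 (SD, n = 3 each). The log2 fold change was 0.18 ± 0.19 (SE), with a 95% interval from -0.23 to 0.60 and a limma adjusted p of 0.576. On the linear scale this interval runs from 0.851 to 1.52 times the control level. Its sign depended on the scaling: with libraries set to equal totals the log2 fold change was -0.03, with an interval from -0.44 to 0.39, and the median over all entries then moved from -0.01 to -0.21. A log2 fold change of -1, that is, 0.5 times the control level, lies outside the interval under both scalings. By mean level miR-182-5p ranked 30 of 1081 entries and took 0.250% to 0.303% of reads in controls and 0.250% to 0.297% in DicerAQP2Cre+ samples.

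miR-183-5p, the guide of the first hairpin, varied more. Controls 1 to 3 had values of 3020, 3881 and 3358, and DicerAQP2Cre+ replicates 1 to 3 had values of 4228, 2071 and 1929. DicerAQP2Cre+ replicate 1 thus stood above every control, and replicates 2 and 3 below every control. The means were 3420 ± 434 and 2743 ± 1288 (SD, n = 3 each), with a log2 fold change of -0.41 ± 0.29, a 95% interval from -1.06 to 0.24 and a limma adjusted p of 0.386. This interval includes both 0 and a log2 fold change of -1, so these 6 libraries do not tell such a fall from no change for miR-183-5p.

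Counting error was a small part of this spread. miR-183-5p was read 12334 times in controls and 8660 times in DicerAQP2Cre+ samples, for which counting alone gives a coefficient of variation of 1.57% and 2.01%. The observed coefficients were 12.7% in controls and 46.97% in DicerAQP2Cre+ samples. The highest DicerAQP2Cre+ value was 2.19 times the lowest. Among the 95 entries with a mean of at least 1000 normalized reads, 13 had a wider range in that group, where the median was 1.47. In controls the range of miR-183-5p, 1.28, was the median of those entries. For miR-182-5p the corresponding DicerAQP2Cre+ range was 1.23, with 78 of the 95 entries wider.

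The size of the miR-183-5p difference depended on single DicerAQP2Cre+ libraries and on the scaling. With equal totals its log2 fold change was -0.62 (limma adjusted p = 0.182), and by edgeR it was -0.26 (adjusted p = 0.579). Without DicerAQP2Cre+ replicate 1 its log2 fold change was -0.77 with a 95% interval from -1.25 to -0.29 (limma unadjusted p = 0.00541, adjusted p = 0.0539), and without replicate 2 or 3 of that group it was -0.25 or -0.20. Over the 15 alternative settings the adjusted p ran from 0.0539 to 0.670. In 2 miRNAs of the miR-200 family DicerAQP2Cre+ replicate 1 lay with its group and below the controls. In that library miR-200b-3p stood at 3399, against 8530 to 8875 in controls, and miR-200c-3p at 2864, against 4375 to 5150. Both are among the entries called lower between genotypes. For miR-205-5p, which was not called, the same library stood at 13188, within the control range of 12267 to 15198. DicerAQP2Cre+ replicate 1 was also the most deeply sequenced library, with 7614853 reads. Why it stood apart for miR-183-5p was not tested.

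**Figure D1:**
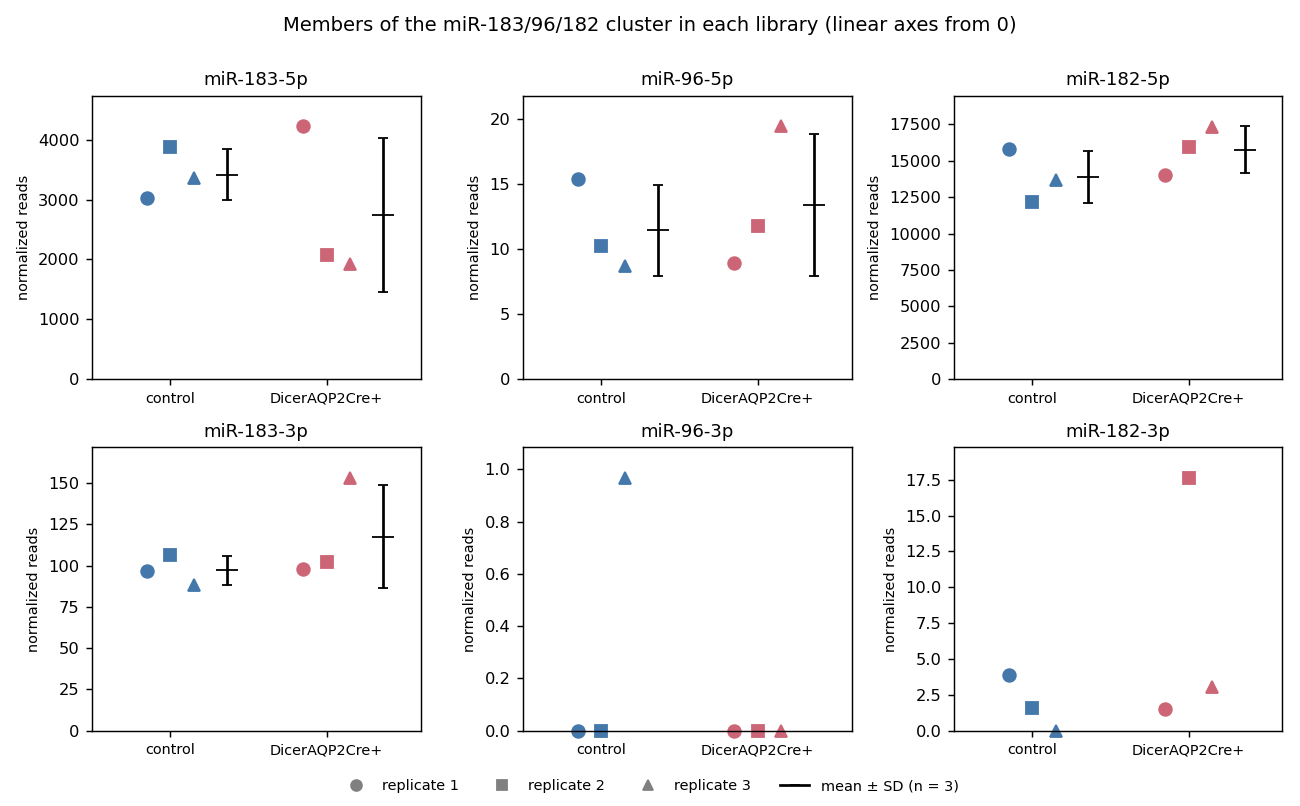
Normalized reads (vertical, linear axes from 0, a different scale in each panel) of the 6 cluster members in control and DicerAQP2Cre+ libraries, a symbol for each replicate, with mean ± SD (n = 3) beside the 4 members that were tested. miR-183-5p in DicerAQP2Cre+ samples ran from 1929 to 4228, on both sides of the controls, while miR-182-5p stayed between 12196 and 17290 in all 6 libraries.

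miR-96-5p, the member whose seed mutations affect hearing, was read rarely. Controls 1 to 3 gave 20, 13 and 9 reads of it, against 12, 6 and 19 in DicerAQP2Cre+ replicates 1 to 3. Normalized, these were 15.4, 10.2 and 8.71 in controls and 8.88, 11.8 and 19.4 in DicerAQP2Cre+ samples, so the groups overlapped. The log2 fold change was 0.18 ± 0.42, with a 95% interval from -0.75 to 1.11 (limma adjusted p = 0.806), and it was -0.02 with equal totals and -0.11 without DicerAQP2Cre+ replicate 3. The coefficients of variation, 30.6% in controls and 40.8% in DicerAQP2Cre+ samples, were close to the 26.9% and 30.4% that counting alone gives. A difference within the 95% interval of the fold change was not excluded by these libraries.

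The 3 guides of the cluster were far from equal in reads. Of the cluster's reads, miR-182-5p held 79.5 ± 4.07% in controls and 84.5 ± 6.999% in DicerAQP2Cre+ samples, miR-183-5p held 19.8 ± 4.01% and 14.8 ± 7.14%, and miR-96-5p held 0.065 ± 0.015% and 0.071 ± 0.026% (SD, n = 3 each). The summed cluster ran from 16194 to 18931 normalized reads in controls, and from 18121 to 19395 in DicerAQP2Cre+ samples, or 0.332% to 0.363% and 0.315% to 0.333% of library reads. The order miR-182-5p, miR-183-5p, miR-183-3p, miR-96-5p was the same in all 6 libraries, with no overlap between neighbours in that order. miR-96-5p was above miR-182-3p in 5 of 6 libraries, the exception being DicerAQP2Cre+ replicate 2, with 6 and 9 reads.

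Ratios were taken within each library, which removes the effect of library scaling: 4 between members or arms of the cluster, and 2 of a member to miR-200c-3p, given further below. All 6 were tested and adjusted together, by exact two-sided permutation over libraries, where 3 against 3 cannot give a p below 0.1. Controls 1 to 3 had 5.23, 3.14 and 4.08 reads of miR-182-5p per read of miR-183-5p, and DicerAQP2Cre+ replicates 1 to 3 had 3.32, 7.68 and 8.96. DicerAQP2Cre+ replicates 2 and 3 lay above every control and replicate 1 within the controls' range. The mean log2 ratio was 0.59 higher in DicerAQP2Cre+ samples (exact p = 0.3, adjusted p = 0.6). That difference was 1.03 without DicerAQP2Cre+ replicate 1 and 0.32 without replicate 3. The log2 ratio of miR-96-5p to miR-183-5p differed by 0.60 (exact p = 0.6, adjusted p = 0.72), by 0.08 without DicerAQP2Cre+ replicate 3, by 1.21 without DicerAQP2Cre+ replicate 1 and by 0.92 without control replicate 1. That of miR-96-5p to miR-182-5p differed by 0.00445 (exact p = 1, adjusted p = 1).

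The passenger arm miR-183-3p and its guide had fold changes of opposite sign, but their ratio overlapped between the groups. Controls 1 to 3 had 96.9, 106 and 88.1 normalized reads of miR-183-3p, and DicerAQP2Cre+ replicates 1 to 3 had 97.6, 102 and 153. DicerAQP2Cre+ replicates 1 and 2 lay within the control range and replicate 3 was above it. The log2 fold change was 0.25 ± 0.26, with a 95% interval from -0.34 to 0.83 (limma adjusted p = 0.596), and it was 0.04 both with equal totals and without DicerAQP2Cre+ replicate 3. In that replicate miR-183-3p was at its highest and miR-183-5p at its lowest of the 6 libraries.

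As a share of the reads of its hairpin, miR-183-3p held 3.11%, 2.66% and 2.56% in control replicates 1 to 3. The shares in DicerAQP2Cre+ replicates 1 to 3 were 2.26%, 4.69% and 7.36%, with exact 95% binomial intervals (Clopper-Pearson) of 1.89% to 2.67%, 3.52% to 6.10% and 6.26% to 8.58%. Replicate 1 was thus below all controls and replicates 2 and 3 above them. However, the interval of replicate 1 met those of all controls. That of replicate 2 met the interval of control replicate 1, which ended at 3.69%. The interval of replicate 3 lay above all control intervals. The log2 ratio of miR-183-5p to miR-183-3p was 5.14 ± 0.15 in controls and 4.48 ± 0.90 in DicerAQP2Cre+ samples, a difference of -0.66 (exact permutation p = 0.4, adjusted p = 0.6, n = 3 each). Without DicerAQP2Cre+ replicate 1 that difference was -1.14, and without replicate 3 it was -0.25.

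The other 2 passenger arms were close to absent. For miR-182-3p there were 5, 2 and 0 reads in controls 1 to 3 and 2, 9 and 3 in DicerAQP2Cre+ replicates 1 to 3, against 8123 to 20537 reads of miR-182-5p. In DicerAQP2Cre+ replicate 2, the shallowest library, it reached 17.6 normalized reads (exact 95% Poisson interval 8.06 to 33.5), while the remaining libraries were between 0 and 3.85. Its share of the hairpin's reads was 0.111% there and at most 0.024% in the others. miR-96-3p had 1 read in all, in control replicate 3. The hairpins thus differed in how far 1 arm prevailed in the reads. In controls miR-183-5p had 31.2 to 38.1 reads per read of miR-183-3p. miR-182-5p had 4107 and 7758 per read of miR-182-3p in the 2 controls in which that arm was seen.

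**Figure D2:**
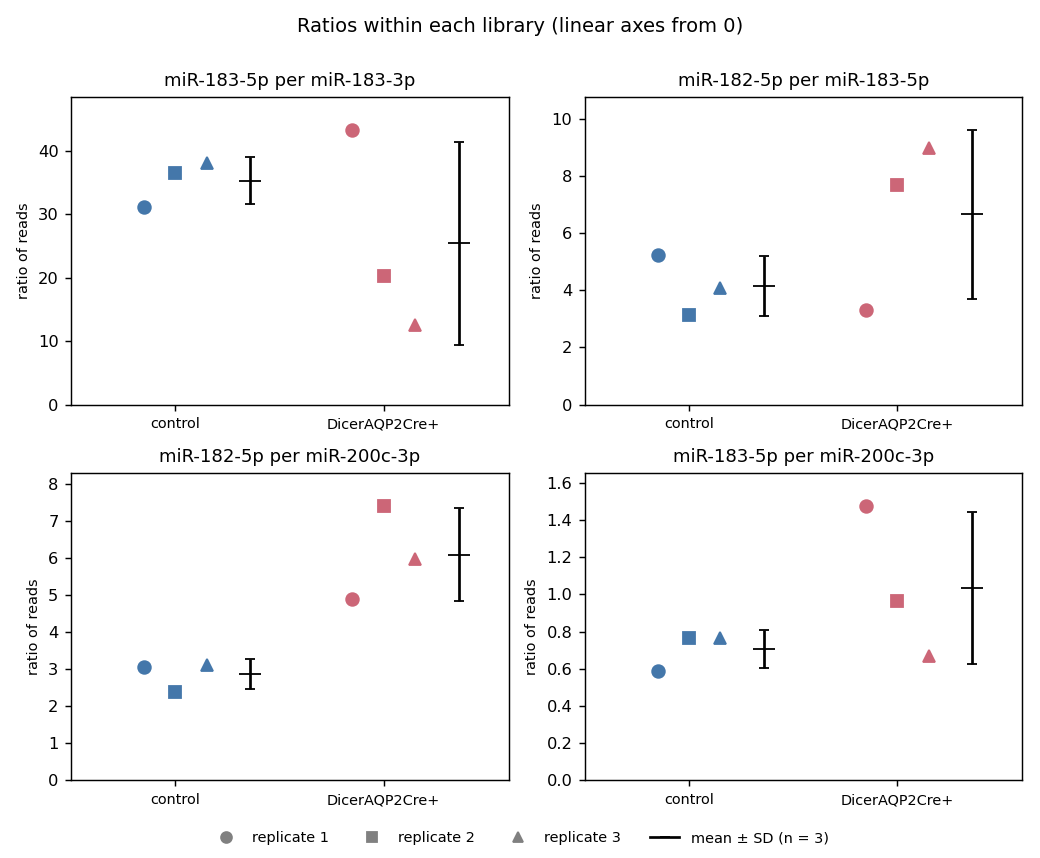
Ratios of reads within each library (vertical, linear axes from 0) for 4 pairs of miRNAs in control and DicerAQP2Cre+ samples, a symbol for each replicate and mean ± SD (n = 3). miR-182-5p per miR-200c-3p ran from 2.40 to 3.13 in controls and from 4.91 to 7.42 in DicerAQP2Cre+ samples, and the other 3 ratios overlapped between the groups.

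The cluster was then set beside other miRNAs of epithelial cells, a list that was known from earlier results of these data to hold changed members. Of these 9 entries, all tested, 6 fell and 1 rose by limma. Over all entries tested, 4.99% were called lower and 3.47% higher. The median log2 fold change of the 9 was -0.96. miR-205-5p, an epithelial miRNA of the skin and other covering epithelia, was the most abundant, at a log2 fold change of 0.42, which missed the threshold (limma adjusted p = 0.318). miR-200b-3p, which represses the transcription factors Zeb1 and Zeb2, came next and fell by 1.10 (adjusted p = 0.0188). The smallest p-values were those of miR-429-3p, of the same family, and miR-31-5p, which fell by 1.23 and 1.26 (adjusted p = 0.0126 for both). The entry that rose was miR-375-3p, known from endocrine and mucosal epithelia, by 0.84 (adjusted p = 0.0340). It was picked out with its values known, and its call was lost in 8 of 15 alternative settings, among them equal totals (adjusted p = 0.0738) and the fits without any 1 library other than DicerAQP2Cre+ replicate 3. Of the 9, 0 were called lower without control replicate 2 or 3, 2 without control replicate 1 and 3 without DicerAQP2Cre+ replicate 2. By edgeR, by DESeq2 and with equal totals, 6 were called lower.

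miR-200c-3p was the reference for the cluster within each library. Controls 1 to 3 had 5150, 5081 and 4375 normalized reads of it, and DicerAQP2Cre+ replicates 1 to 3 had 2864, 2146 and 2891, without overlap. Its log2 fold change was -0.90, with a 95% interval from -1.34 to -0.45 (limma adjusted p = 0.0174), which does not meet that of miR-182-5p. Per read of miR-200c-3p there were 3.07, 2.40 and 3.13 reads of miR-182-5p in controls 1 to 3, and 4.91, 7.42 and 5.98 in DicerAQP2Cre+ replicates 1 to 3. All 3 DicerAQP2Cre+ libraries were above all controls, by a mean of 1.08 on the log2 scale, or 2.11-fold. Since miR-200c-3p was chosen with its fall known, this ratio mostly restates that fall and is no separate support for a difference of the cluster from it. The exact permutation p was 0.1, the least this design can give, and the adjusted p was 0.6, so the difference did not pass. Leaving out any 1 library gave a difference between 0.93 and 1.23. For miR-183-5p the same ratio was 0.586, 0.764 and 0.768 in controls 1 to 3, and 1.48, 0.965 and 0.667 in DicerAQP2Cre+ replicates 1 to 3. These groups overlapped, with a difference of 0.49 (exact p = 0.3, adjusted p = 0.6). It was 0.20 without DicerAQP2Cre+ replicate 1 and 0.77 without replicate 3 of that group.

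**Figure D3:**
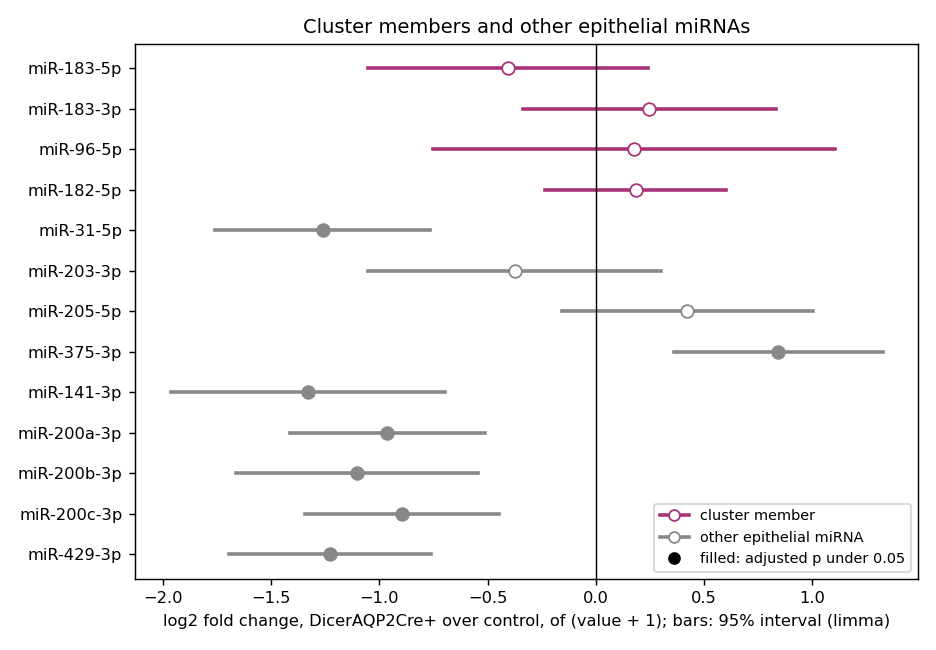
Log2 fold change of (value + 1), DicerAQP2Cre+ over control (horizontal), with its 95% limma interval for the 4 tested cluster members and 9 other epithelial miRNAs, filled where the adjusted p was under 0.05. The intervals of the 4 cluster members all cross 0, and those of the miR-200 family lie below it.

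The entries whose log2 levels most resembled those of miR-182-5p over the 6 libraries, among 457 compared, were miR-877-5p (Pearson r = 0.961), miR-7036a-3p (r = 0.937) and miR-8103 (r = 0.936). These values are descriptions of the best matches, over libraries that share their normalization, and miR-7036a-3p and miR-8103 were low. For miR-877-5p, controls 1 to 3 had 315, 237 and 262 normalized reads and DicerAQP2Cre+ replicates 1 to 3 had 271, 325 and 415. Its log2 fold change of 0.30 missed the threshold (limma adjusted p = 0.449). Like miR-182-5p it was lowest in control replicate 2 and highest in DicerAQP2Cre+ replicate 3.

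**Figure D4:**
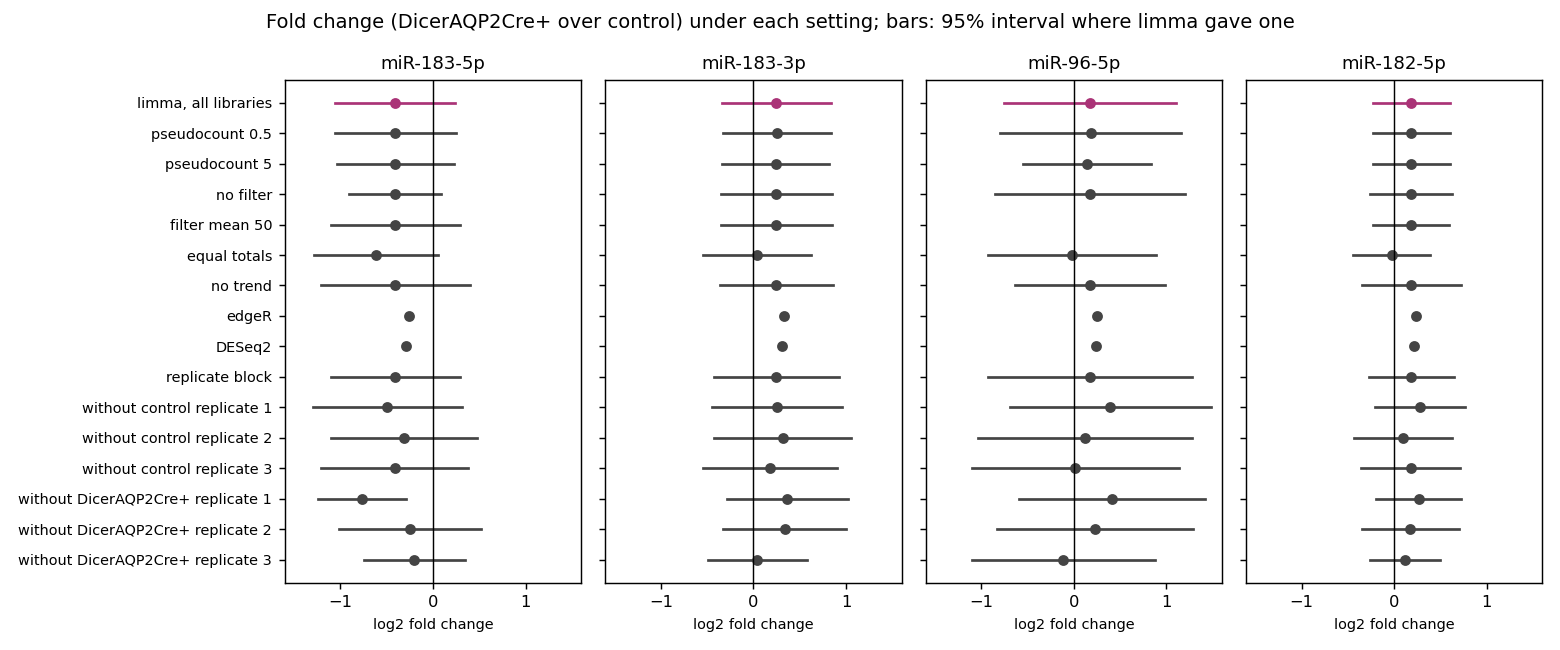
Log2 fold change (horizontal, DicerAQP2Cre+ over control) of the 4 tested cluster members under each setting named on the vertical axis, with 95% intervals where limma gave one. The 1 interval clear of 0 is that of miR-183-5p without DicerAQP2Cre+ replicate 1, from -1.25 to -0.29.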

How the data were processed

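The authors deposited normalized signal: for each mature miRNA, its reads over a library-wide size factor. Tools in the submitters' processing notes are DESeq2 and FastQC 0.11.3, and the build is mm9. Which aligner, counting tool and miRNA release were used is not given in the sources used here. Values in each column were whole multiples of its smallest value above 0 (100% within 0.01 read, largest deviation 0.002), so whole reads were recovered. limma 3.58.1 (R 4.3.3) with a mean-variance trend and no replicate block was the main test. It used a pseudocount of 1, all 6 libraries and entries with a mean of at least 5, and was two-sided and adjusted over 461 entries. edgeR 4.0.16 and DESeq2 1.42.0 on recovered reads were alternatives. Scripts were tested on simulated data. Per the series' design text libraries came from separate mice. The members, the lists (other epithelial miRNAs and neural and sensory, leukocyte, endothelial, stromal, erythroid and cortical tubule markers) and the ratios were chosen with earlier results of these data known. Named miRNAs were all members, miRNAs sharing a 5p seed and the 3 best correlated with the most abundant member. Of the epithelial list, the 2 most abundant, the 2 with the smallest p and the ratio reference miR-200c-3p were named. miR-375-3p of that list was added with its values known. Of the marker lists, every miRNA given by name was named after its values were seen. Sequences are from RefSeq (GRCm38.p6).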

Additional observations from a re-analysis of the deposited data

How the results depend on the processing

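In all 15 alternatives 0 members were called lower and 0 higher. miR-183-5p kept a log2 fold change below 0 and miR-183-3p one above 0 throughout. With equal totals miR-183-5p was at -0.62 and miR-183-3p at 0.038, miR-182-5p turned to -0.028 and miR-96-5p to -0.019. Leaving out 1 library gave -0.77 to -0.20 for miR-183-5p, 0.04 to 0.37 for miR-183-3p, 0.09 to 0.28 for miR-182-5p and -0.11 to 0.41 for miR-96-5p. The cause was not tested. The difference between genotypes in the log2 ratio of miR-96-5p to miR-182-5p was near 0. This difference turned to -0.00825 with 1 added to both values, and ran from -0.23 to 0.18 without 1 library. The differences in the other 5 ratios kept their direction. Over all entries tested, 23 were called lower and 16 higher. The counts were 48 lower with equal totals, 11 lower and 7 higher without a trend, and 29 higher by DESeq2. Without 1 library, which leaves fewer samples, they ran from 0 to 62 lower and from 0 to 43 higher. Both were 0 without control replicate 2 or 3. With the replicate number as a block, miR-183-5p was at -0.41 (limma adjusted p = 0.415), and 18 entries were lower and 14 higher. Same-numbered libraries did not deviate together (correlations of -0.059, 0.005 and 0.055, against -0.088 to 0.103 for differently numbered ones). With so few libraries this cannot settle whether the numbers pair them. With no filter, the log2 fold changes were 1.30 for miR-182-3p and -0.33 for miR-96-3p (limma adjusted p of 0.451 and 0.731). miR-96-5p could not be fitted with a filter of 50. Of the other epithelial miRNAs 2 were called lower and 0 higher without a trend. Depth limits miR-96-5p and the passenger arms of miR-96 and miR-182.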
